A study of Homo sapiens with 6 samples.

Results

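The enzymes that make and balance deoxynucleotides, the building blocks of DNA, were examined in ovarian cancer cells after EIF5A2 knockdown. The 9 genes were chosen by name, with earlier results of these data known: TYMS, DUT, RRM1, RRM2, RRM2B, TK1, DCK, CTPS1 and SAMHD1. All 9 were found among the 58825 gene identifiers of the table and all 9 passed the filter on low counts, as did 16208 genes in all. The cells were SKOV3, an established human epithelial ovarian cancer line. In 3 libraries (NC) the cells had received a negative control siRNA, and in the other 3 they had received si-EIF5A2, an siRNA against EIF5A2, which encodes a translation factor that carries hypusine. The series description puts RNA isolation 48 h after transfection. Transfection was transient, 1 duplex against EIF5A2 is listed, and the labels name no other treatment in either group. No label says that the 3 libraries of a group came from separate cultures, so the p-values measure only the spread between these samples, which may be technical.

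A dividing cell has to fill its deoxynucleotide pools before it can copy its DNA, and several of the enzymes are made mainly in S phase. Ribonucleotide reductase removes an oxygen from the sugar of ribonucleotides. Its large subunit, RRM1, pairs with RRM2, the small subunit of cycling cells, or with RRM2B, a stress-inducible small subunit that supplies repair and mitochondrial DNA outside S phase. Thymidylate synthase (TYMS) makes the thymine nucleotide from the uracil one and is the target of fluorouracil, and dUTPase (DUT) supplies its substrate while keeping uracil out of DNA. Thymidine kinase 1 (TK1) and deoxycytidine kinase (DCK) recover deoxynucleosides by salvage. CTP synthase 1 (CTPS1) makes the cytosine nucleotide, and SAMHD1 hydrolyses deoxynucleotides when they are in excess.

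The libraries held between 46900204 and 74142267 estimated counts. Low values piled up at multiples of about 3.78, so these totals correspond to about 12407461 to 19614356 fragments. Levels are given as CPM, a gene's counts relative to the TMM-scaled size of its library. EIF5A2 itself stood at 27.8, 29.8 and 29.9 CPM in NC and at 2.76, 4.04 and 4.27 CPM in si-EIF5A2, which left 12.7% of the NC mean. Genes were tested by the quasi-likelihood method of edgeR with Benjamini-Hochberg adjustment over all genes, which gives the edgeR adjusted p quoted throughout, and that of EIF5A2 was 1.6e-05. Of 8 epithelial and ovarian markers, KRT8, KRT18, ERBB2 and PAX8 were well expressed, KRT19, EPCAM and CDH1 lay between 0.172 and 3.85 CPM, and MUC16, which encodes CA125, was at 0 in all 6 libraries. The summed level of the 8 markers was 1134 to 1267 CPM in NC and 755 to 949.8 CPM in si-EIF5A2. The well-expressed markers did not move alike. KRT8 kept 61.9% and PAX8 57.5% of the NC mean (edgeR adjusted p = 0.000536 and 0.000928). KRT18 kept 94.7% and ERBB2 98.9% (edgeR adjusted p = 0.758 and 0.908). Of 5 markers of blood and endothelial cells, PTPRC and CD3E were at 0 in all 6 libraries, and the 5 together came to 1.94 to 2.43 CPM in NC and to 0 to 1.0 CPM in si-EIF5A2.

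Most of the deoxynucleotide genes were lower after EIF5A2 knockdown. To be called, a gene needed an edgeR adjusted p under 0.05 together with more than a 1.5-fold difference. By this rule 6 of the 9 genes were downregulated, 1 was upregulated and 2 were not called. Over all genes tested, 24.6% were called, 13.6% lower and 11.1% higher, against 77.8% of the 9. Since the 9 were chosen with earlier results of these data known, this contrast is a description and not a test. The median log2 fold change (si-EIF5A2 minus NC) of the 9 genes was -0.88, beside -0.01 for all genes tested, whose middle 50% ran from -0.50 to 0.41. The fall was steepest for TK1, followed by RRM2, DUT and TYMS, and all 4 of these were among the lowest 5% of genes tested, with 2.17%, 3.24%, 3.79% and 4.84% of genes below them. RRM1 and DCK fell with smaller estimates, having 14.4% and 17.9% of genes below them. RRM2B rose, and 85.1% of genes lay below it. In 8 of the 9 genes no library of either group reached into the range of the other, a pattern seen in 51.2% of all genes tested. In bulk samples, fewer cells of a type and less RNA per cell cannot be told apart.

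**Figure D1:**
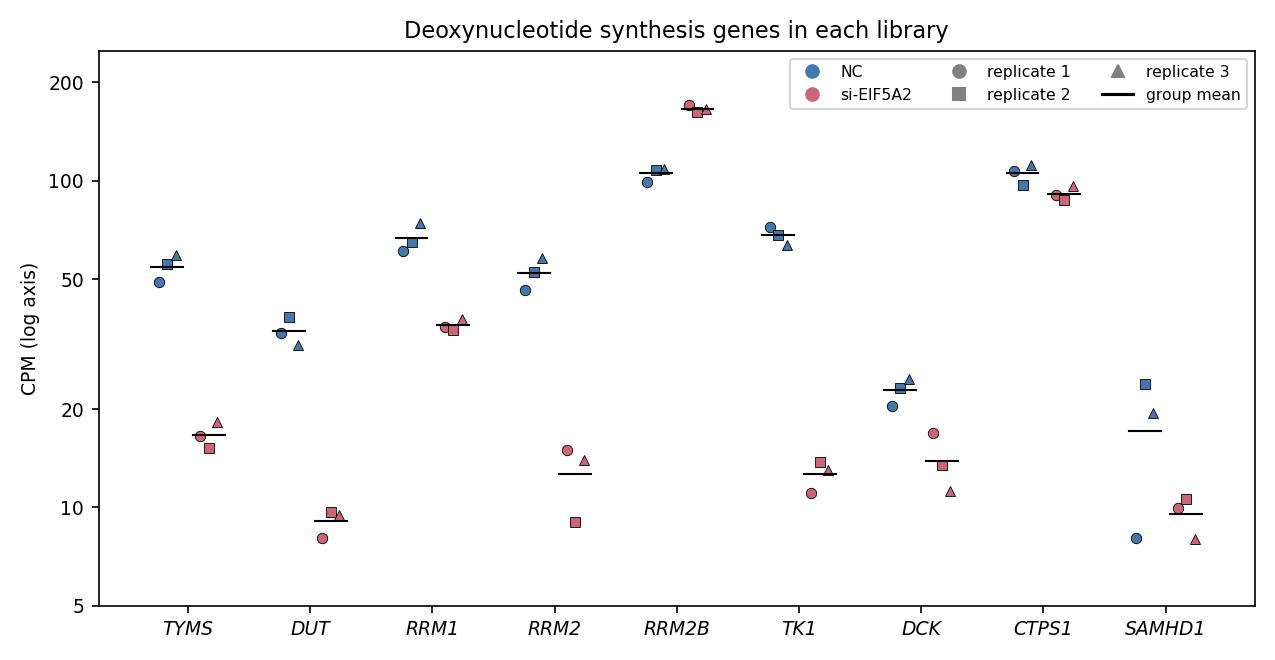
CPM (log axis) of the 9 deoxynucleotide genes in the 3 NC (blue) and 3 si-EIF5A2 (red) libraries. Point shapes are replicates and black lines are group means. The groups overlap for SAMHD1, where NC replicate 1 lies at 8.03 CPM, and RRM2B alone is higher in si-EIF5A2.

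**Figure D2:**
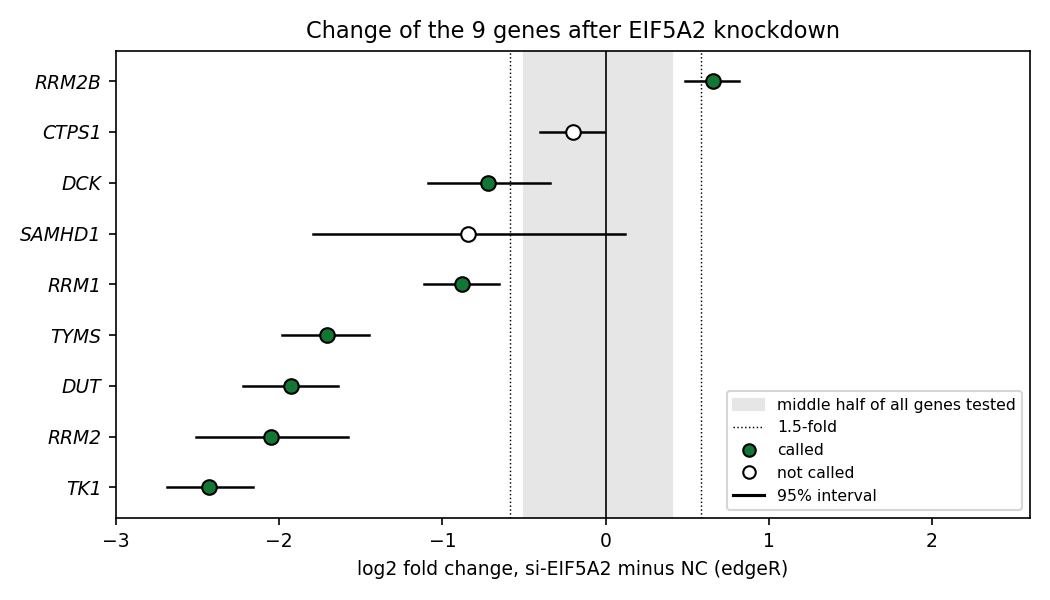
The log2 fold change (si-EIF5A2 minus NC, edgeR) of each of the 9 genes with its 95% interval. Filled points are called genes, the dotted lines mark a fold change of 1.5, and the grey band holds the middle 50% of all genes tested, from -0.50 to 0.41.

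Promoters of the deoxynucleotide genes were searched for short motifs of cell cycle and general transcription factors. RefSeq (GRCh38.p14) windows from 250 bases before to 50 bases after a start site were on hand for 8 of the 9 genes, all but RRM2B, as 14 windows in all. Windows of the same gene can overlap. Both strands were searched. The letters of E2F, a factor of S phase genes, were TTTNNCGC. The cell cycle homology region (CHR) was searched as TTTGAA and also as TTCGAA. Those of NF-Y were CCAAT, those of SP1 were GGGCGG and those of the TATA box were TATAAA. In these windows no match to 1 motif overlapped a match to another. The E2F letters occurred in TYMS, DCK and DUT, in 3 of the 14 windows and in 6.89% of the 35116 promoters of the table. CHR letters occurred in RRM1 and DUT, in 2 of the 14 windows and in 16.4% of all promoters. CCAAT was found in RRM1, RRM2, TK1 and SAMHD1, in 5 of the 14 windows and in 34.6% of all promoters. GGGCGG was found in 6 of the 8 genes, in 9 of the 14 windows and in 45.0% of all promoters. TATAAA was found in TK1, in 1 of the 14 windows and in 11.5% of all promoters. A match is a description of the letters and not a site bound by a factor.

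The pieces below carry the E2F letters of the genes that make thymine nucleotides and the CCAAT letters of the subunit, salvage and hydrolase genes. These genes include the steepest falls and also SAMHD1, which was not called. RRM1 holds 1 CCAAT, and several of the others hold more than 1 copy. A link between the letters and the falls was not tested. The CHR letters of RRM1 and DUT and the E2F letters of DCK, which lie after the start, are not shown. Capitals mark the matched letters, on either strand, and positions count from the start site. The TYMS piece lies at chr18:657603-657632 (+), 50 to 21 bases before the start. The DUT piece, at chr15:48332152-48332181 (+), holds 2 E2F copies on opposite strands. The RRM1 piece lies at chr11:4094645-4094674 (+). The upstream, middle and downstream pieces of RRM2, at chr2:10122604-10122633, chr2:10122634-10122663 and chr2:10122661-10122690 (+), come from the same window, and in each of these 3 CCAAT is followed by gggaaggg. A further RRM2 piece, at chr2:10122318-10122347 (+) in the other window, holds CCAAT without those letters after it. Both TK1 pieces, at chr17:78187112-78187141 and chr17:78187081-78187110 (-), hold CCAAT on the opposite strand. SAMHD1, at chr20:36951735-36951764 (-), holds 2 copies close together.
TYMS: gcgggacggccGCGGGAAAaggcgcgcgga
DUT: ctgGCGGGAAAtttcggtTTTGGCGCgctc
RRM1: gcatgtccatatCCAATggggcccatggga
RRM2 other window: tCCAATcgctgctcctcacgcaatcctaaa
RRM2 upstream: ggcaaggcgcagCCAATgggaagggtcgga
RRM2 middle: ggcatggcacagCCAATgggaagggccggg
RRM2 downstream: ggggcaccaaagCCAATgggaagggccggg
TK1 upstream: ggccgggcgctgATTGGccccatggcggcg
TK1 downstream: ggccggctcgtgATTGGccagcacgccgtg
SAMHD1: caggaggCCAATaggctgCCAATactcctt

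In the branch that makes thymine nucleotides, both genes of the set fell. TYMS stood at 48.9, 55.5 and 59.3 CPM in NC and at 16.5, 15.2 and 18.3 CPM in si-EIF5A2. Every NC library was above every si-EIF5A2 library, and the mean was 3.28-fold lower after knockdown, with a log2 fold change of -1.71 (SE 0.11, 95% interval -1.98 to -1.45, edgeR adjusted p = 2.57e-05). DUT stood at 34.2, 38.3 and 31.5 CPM in NC and at 8.08, 9.71 and 9.47 CPM in si-EIF5A2. The DUT groups were also far apart, and its log2 fold change was -1.93 (SE 0.12, 95% interval -2.22 to -1.64, edgeR adjusted p = 2.22e-05). DTYMK, the kinase that acts on the product of TYMS, fell by 0.87 on the log2 scale (edgeR adjusted p = 0.000963), with means of 84.0 ± 6.91 in NC and 45.9 ± 6.80 CPM after knockdown (SD, n = 3 per group). DCTD, which like DUT provides the substrate of TYMS, but from deoxycytidylate, did not share this direction. It averaged 98.2 ± 8.92 in NC against 132 ± 2.70 CPM after knockdown (SD, n = 3 per group), and its log2 fold change of 0.42 (edgeR adjusted p = 0.00523) was under the 1.5-fold limit.

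The 3 subunits of ribonucleotide reductase did not move alike. RRM1 stood at 60.8, 64.8 and 74.1 CPM in NC and at 35.6, 34.9 and 37.8 CPM in si-EIF5A2. This large subunit fell by 0.88 on the log2 scale (SE 0.10, 95% interval -1.11 to -0.65, edgeR adjusted p = 0.000306), to 54.2% of the NC mean. RRM2, the S phase small subunit, stood at 46.2, 52.6 and 57.8 CPM in NC and at 15.0, 9.0 and 14.0 CPM in si-EIF5A2. It fell by 2.05 on the log2 scale (SE 0.20, 95% interval -2.51 to -1.58, edgeR adjusted p = 0.00021), and si-EIF5A2 replicate 2 was the lowest of the 6 libraries. RRM2B, the stress-inducible small subunit, stood at 99.3, 108 and 109 CPM in NC and at 171, 162 and 166 CPM in si-EIF5A2. It was the upregulated gene of the 9, with a log2 fold change of 0.66 (SE 0.07, 95% interval 0.49 to 0.82, edgeR adjusted p = 0.000272).

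To compare the subunits with each other, levels were expressed as CPM per kilobase of exon. The share of RRM2B in the small subunit transcripts (RRM2 plus RRM2B) was 67.3%, 66.3% and 64.4% across NC replicates 1 to 3, against 91.6%, 94.5% and 91.9% across those of si-EIF5A2. RRM2B was the more abundant small subunit transcript in both groups, and its share was higher by 26.7 percentage points after knockdown (66.0% ± 1.47 against 92.7% ± 1.58, SD, n = 3 each). The exact 2-sided permutation test gave p = 0.10, the smallest that 3 against 3 libraries allow. The log2 ratio of RRM2 to RRM1 was -0.74, -0.65 and -0.71 in NC and -1.60, -2.31 and -1.79 in si-EIF5A2. The log2 ratio of RRM2B to RRM1 was 0.30, 0.33 and 0.15 in NC and 1.85, 1.80 and 1.73 in si-EIF5A2. Neither ratio overlapped between the groups, the first differing by -1.2 and the second by 1.54, and the exact permutation p was 0.10 for both. RRM2B exceeded RRM1 per length of all exons in every library. With the length of the longest transcript instead, RRM2B was above RRM1 in every si-EIF5A2 library (32.8 to 34.6 against 11.0 to 11.9 CPM per kilobase), while in NC replicate 3 it was below (22.1 against 23.4).

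**Figure D3:**
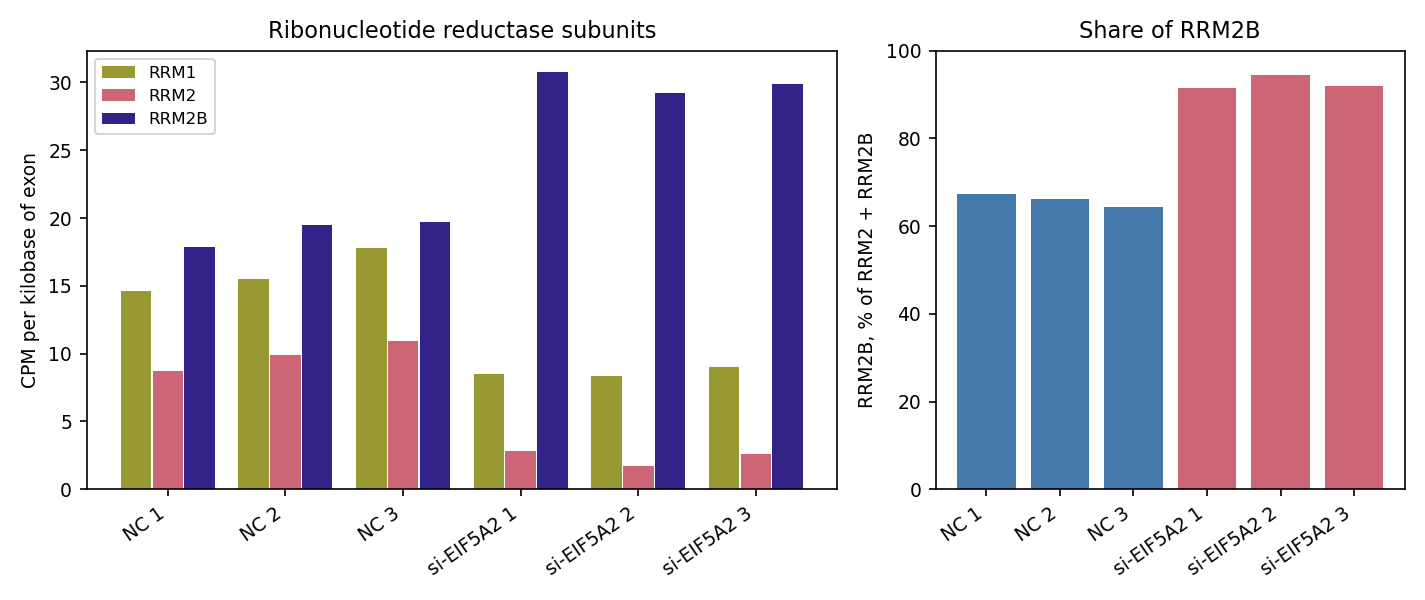
Left, CPM per kilobase of exon of RRM1, RRM2 and RRM2B in each library. Right, RRM2B as a percentage of RRM2 plus RRM2B per library, which is 64.4% to 67.3% in NC (blue) and 91.6% to 94.5% in si-EIF5A2 (red). Each bar is 1 library.

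A regulator of the RRM2 protein was measured in the same libraries. CCNF encodes cyclin F, which marks the RRM2 protein for destruction, and its transcript fell by 2.64 on the log2 scale (edgeR adjusted p = 5.63e-06), with means of 42.3 ± 0.877 in NC and 6.79 ± 0.789 CPM after knockdown (SD, n = 3 per group). Protein levels were not measured in these libraries.

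Both salvage kinases fell, TK1 with the larger estimate. TK1, the cytosolic kinase for thymidine, stood at 72.4, 68.2 and 63.4 CPM in NC and at 11.1, 13.8 and 13 CPM in si-EIF5A2. Its level was 5.38-fold lower, with a log2 fold change of -2.43 (SE 0.11, 95% interval -2.69 to -2.16, edgeR adjusted p = 6.81e-06). DCK, which phosphorylates deoxycytidine and activates drugs such as gemcitabine and cytarabine, stood at 20.5, 23.2 and 24.7 CPM in NC and at 16.9, 13.5 and 11.2 CPM in si-EIF5A2. The groups did not overlap but were close, and the log2 fold change was -0.72 (SE 0.16, 95% interval -1.09 to -0.34, edgeR adjusted p = 0.01). The 95% intervals of TK1 and DCK did not overlap, although the difference between them was not tested. TK2 and DGUOK are the mitochondrial counterparts of these kinases. TK2 fell by 0.72 on the log2 scale (edgeR adjusted p = 0.00125), with means of 20.7 ± 0.905 in NC and 12.6 ± 0.774 CPM after knockdown (SD, n = 3 per group). DGUOK averaged 46.9 ± 1.45 in NC against 51.9 ± 7.26 CPM after knockdown (SD, n = 3 per group), and its difference of 0.15 on the log2 scale was within the spread of the libraries (95% interval -0.12 to 0.41, edgeR adjusted p = 0.367).

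CTPS1 and SAMHD1 were the genes not called. CTPS1 stood at 107, 96.8 and 112 CPM in NC and at 90.2, 87.4 and 96.4 CPM in si-EIF5A2. The groups were separated by a narrow gap, the log2 fold change was -0.20 (SE 0.08, 95% interval -0.40 to -0.01) and the edgeR adjusted p was 0.094. The interval of CTPS1 lay above those of TK1, RRM2, DUT, TYMS and RRM1. CTPS2, its paralog, averaged 12.7 ± 0.984 in NC against 17.1 ± 0.598 CPM after knockdown (SD, n = 3 per group), with a log2 fold change of 0.43 (edgeR adjusted p = 0.0168) that was under the 1.5-fold limit. SAMHD1 stood at 8.03, 23.8 and 19.4 CPM in NC and at 9.98, 10.6 and 8.01 CPM in si-EIF5A2. Its NC replicate 1 lay among the si-EIF5A2 libraries, and the log2 fold change of -0.84 had a wide interval (SE 0.39, 95% interval -1.79 to 0.12, edgeR adjusted p = 0.152). DESeq2 called SAMHD1 with all 6 libraries (-0.84, adjusted p = 0.0308). Its edgeR log2 fold change was -1.18 without NC replicate 1 (adjusted p = 0.00262) and -0.52 without NC replicate 2 (adjusted p = 0.372), so the call changed with the tool and with the library left out.

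Per kilobase of exon, the order of the genes changed with the knockdown. In NC, TK1 was the most abundant transcript of the 9, at 36.5 ± 2.40 CPM per kilobase (SD, n = 3). TYMS at 22.1, RRM2B at 19.0 and RRM1 at 15.9 CPM per kilobase followed, and in this trio the libraries of neighbours were separated by narrow gaps, with TYMS at 19.8 or more, RRM2B at 17.9 to 19.7 and RRM1 at 17.8 or less. RRM2 at 9.81, DUT at 9.44 and CTPS1 at 9.14 CPM per kilobase overlapped in their libraries and did not differ beyond their spread. DCK at 7.06 and SAMHD1 at 1.52 CPM per kilobase were the least abundant. In si-EIF5A2, RRM2B was the most abundant at 29.2 to 30.8 CPM per kilobase, and the next, RRM1, stood at 8.65. CTPS1 at 7.93 CPM per kilobase came close to RRM1. TK1 at 6.79 and TYMS at 6.74 CPM per kilobase did not differ beyond their spread, and neither did DUT at 2.47 and RRM2 at 2.38. DCK stood at 4.29 CPM per kilobase between these pairs and SAMHD1 again came last at 0.847. These levels were set per length of all annotated exons of a gene, including exons that SKOV3 may not use, and part of the order turned on that length. With the length of the longest transcript, CTPS1 at 17.1 CPM per kilobase stood second in si-EIF5A2, above RRM1 at 11.4, and TYMS at 9.13 to 11.0 stood above TK1 at 6.61 to 8.22. In NC, CTPS1 at 19.8 CPM per kilobase then overlapped RRM1 at 21.0 and RRM2B at 21.4, apart from DUT at 16.1 and RRM2 at 14.2. TK1 in NC and RRM2B in si-EIF5A2 had the highest mean with either length, and SAMHD1 the lowest in both groups.

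The 9 genes lie on 9 different chromosomes, so no 2 of them are neighbours (GRCh38, GENCODE release 29). TYMS (ENSG00000176890) runs from 657604 to 673578 on chromosome 18, DUT (ENSG00000128951) from 48331011 to 48343373 on chromosome 15, RRM1 (ENSG00000167325) from 4094707 to 4138876 on chromosome 11 and RRM2 (ENSG00000171848) from 10120698 to 10131419 on chromosome 2, all on the plus strand. DCK (ENSG00000156136), from 70992538 to 71030914 on chromosome 4, and CTPS1 (ENSG00000171793), from 40979335 to 41012565 on chromosome 1, are also on the plus strand. RRM2B (ENSG00000048392) runs from 102204502 to 102239118 on chromosome 8, TK1 (ENSG00000167900) from 78174075 to 78187233 on chromosome 17 and SAMHD1 (ENSG00000101347) from 36889773 to 36951901 on chromosome 20, all on the minus strand. RRM2B and RRM2 are paralogs at separate loci and have separate rows in the table.

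Some exons are shared with other genes, which makes the counts there less certain, since no source used here says whether counting used the strand. The exons of ENOSF1, on the opposite strand, cover 967 bases or 39.1% of the exon length of TYMS. ENOSF1 also fell by 0.95 on the log2 scale (edgeR adjusted p = 0.00256), with means of 20.1 ± 4.01 in NC and 10.4 ± 0.902 CPM after knockdown (SD, n = 3 per group), and reads from the shared bases cannot be told apart. TYMSOS covers 183 further bases of TYMS at 0.213 to 0.493 CPM. DUT-AS1, opposite to 533 bases or 14.5% of DUT, stood at 0.167 to 0.706 CPM, far under DUT. MOB1B shares 199 bases with DCK on the same strand and had a log2 fold change of -0.48 (edgeR adjusted p = 0.0406). TLDC2, opposite to 1159 bases of SAMHD1, had 10, 12 and 9 counts in NC and 0 in all 3 si-EIF5A2 libraries, and RRM1-AS1 had 0 counts throughout. An annotated protein-coding gene on the same strand, AC007240.1, shares 1077 bases or 20.2% with RRM2 and is not a row of the table. Pseudogenes with separate rows held little: 2 for TYMS were at 0, 3 for RRM2 reached at most 0.11% of its count and 8 for DUT at most 1.18%.

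For each called gene, the nearest genes over the 6 libraries were found by the root mean square (RMS) difference between their centred log2 CPM values, a description with no test that follows mainly the difference between the groups. MCM3, a subunit of the replication helicase, and MTHFD1, a folate enzyme, were nearest to RRM1, with RMS differences of 0.0512 and 0.0517, followed by PUDP at 0.0536. THOC6 at 0.0814, MYBL2 at 0.0851 and ABI3 at 0.0900 were nearest to TK1, and MYBL2 encodes a transcription factor of cycling cells. FNTB at 0.0629, LY6K at 0.0705 and TFAM, a mitochondrial DNA packaging factor, at 0.0714 were nearest to TYMS. CDH4 at 0.0660, PHF19 at 0.0739 and PPIP5K1 at 0.0787 were nearest to DUT. For RRM2 the nearest genes, STAMBPL1 at 0.130, ZNF367 at 0.138 and CD22 at 0.155, were farther away. SLAIN1 at 0.0657, MMP19 at 0.0685 and PKP4 at 0.0751 were nearest to DCK. Of the 7 called genes RRM2B had the closest neighbours, RP2 at 0.0215, PDIA3 at 0.0233 and SEC62 at 0.0306. Among the 9 genes, TYMS and DUT were nearest to each other, with an RMS difference of 0.206, and DUT ranked 156 among the genes nearest to TYMS.

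The other lists of nucleotide metabolism had medians nearer to 0 than the 9 genes. Of 21 tested nucleoside and nucleotide kinases, 3 fell and 1 rose (19.0% called, beside 24.6% of all genes), with a median log2 fold change of 0.10 (0.01 to 0.16 with 1 library left out, lowest without NC replicate 3), and DTYMK and TK2 were the largest falls. Of 20 tested genes of nucleotide breakdown and clean-up, 4 fell and 2 rose. These 6 calls of 20 were a share near the 24.6% of all genes. The median of this list was 0.07 (-0.04 to 0.05 with 1 library left out, below 0 without NC replicate 2). In that list PNP, purine nucleoside phosphorylase, fell by 1.95 on the log2 scale (edgeR adjusted p = 6.5e-06), with means of 278 ± 1.58 in NC and 71.8 ± 7.30 CPM after knockdown (SD, n = 3 per group). NUDT1, which removes oxidised purine nucleotides, fell by 1.06 on the log2 scale (edgeR adjusted p = 0.000316). NUDT5 rose by 0.81 (edgeR adjusted p = 0.0003), and so did DPYD, the enzyme that degrades uracil, thymine and fluorouracil, by 0.60 (edgeR adjusted p = 0.0113). All of the called genes of the folate cycle fell, 5 of 17 (29.4%, beside 24.6% of all genes), and the median of the list was -0.37, or -0.18 without si-EIF5A2 replicate 2. SHMT2, the mitochondrial serine hydroxymethyltransferase, fell by 1.65 on the log2 scale (edgeR adjusted p = 1.46e-05), with means of 937 ± 46.7 in NC and 298 ± 33.8 CPM after knockdown (SD, n = 3 per group). MTHFD1L, which makes formate from folate in mitochondria, fell by 1.12 (edgeR adjusted p = 2.14e-05).

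De novo purine and pyrimidine synthesis had 5 falls and no rise among 19 genes (26.3% called, beside 24.6% of all genes), and its median was -0.27. ATIC, which catalyses the last steps of purine synthesis, fell by 1.2 on the log2 scale (edgeR adjusted p = 2.9e-05), with means of 199 ± 9.51 in NC and 86.6 ± 6.61 CPM after knockdown (SD, n = 3 per group). IMPDH2, which commits purines to guanine nucleotides, fell by 0.76 on the log2 scale (edgeR adjusted p = 0.00114). Of the 4 genes of the systems that reduce ribonucleotide reductase, directly or through a partner, 1 was called, a share near that of all genes. The median of the 4 was 0.33. That median was lowest, 0.18, when si-EIF5A2 replicate 3 was left out and highest, 0.56, when NC replicate 3 was. That gene, GLRX, glutaredoxin, rose by 1.34 on the log2 scale (edgeR adjusted p = 9.77e-06), with means of 89.7 ± 2.96 in NC and 227 ± 9.48 CPM after knockdown (SD, n = 3 per group). It moved opposite to RRM1 and RRM2 and in the same direction as RRM2B.

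S phase markers, a list also chosen with earlier results of these data known, fell in the same libraries. Of 40 such markers, with TYMS, RRM1 and RRM2 left out, 33 fell and none rose (82.5% called by edgeR, beside 24.6% of all genes), with a median log2 fold change of -1.67. Their summed level was 1182 to 1322 CPM in NC and 556 to 570.4 CPM in si-EIF5A2, and none of the 40 was at 0 in all libraries. DTL, a substrate receptor of a replication-linked ubiquitin ligase, fell by 2.99 on the log2 scale (edgeR adjusted p = 1.13e-05), and CENPU, a centromere protein, fell by 2.28 (edgeR adjusted p = 2.26e-05). The falls of TK1, RRM2, DUT and TYMS lay within the range of this list, whose values ran from -2.99 to 0.38. The share of cells in S phase was not measured, and its part in the falls was not tested.

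SAMHD1 can be induced by interferon, and of 36 tested interferon-stimulated genes 4 rose and 6 fell (27.8% called, beside 24.6% of all genes), with a median of 0.07 that was -0.05 without NC replicate 2. IFI44 rose by 2.05 (edgeR adjusted p = 2.67e-05) and RIGI, an RNA sensor, by 0.84 (edgeR adjusted p = 0.000311), whereas STAT2 fell by 1.17 on the log2 scale (edgeR adjusted p = 0.000648) and ISG20 fell by 0.90 (edgeR adjusted p = 0.000796).

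**Figure D4:**
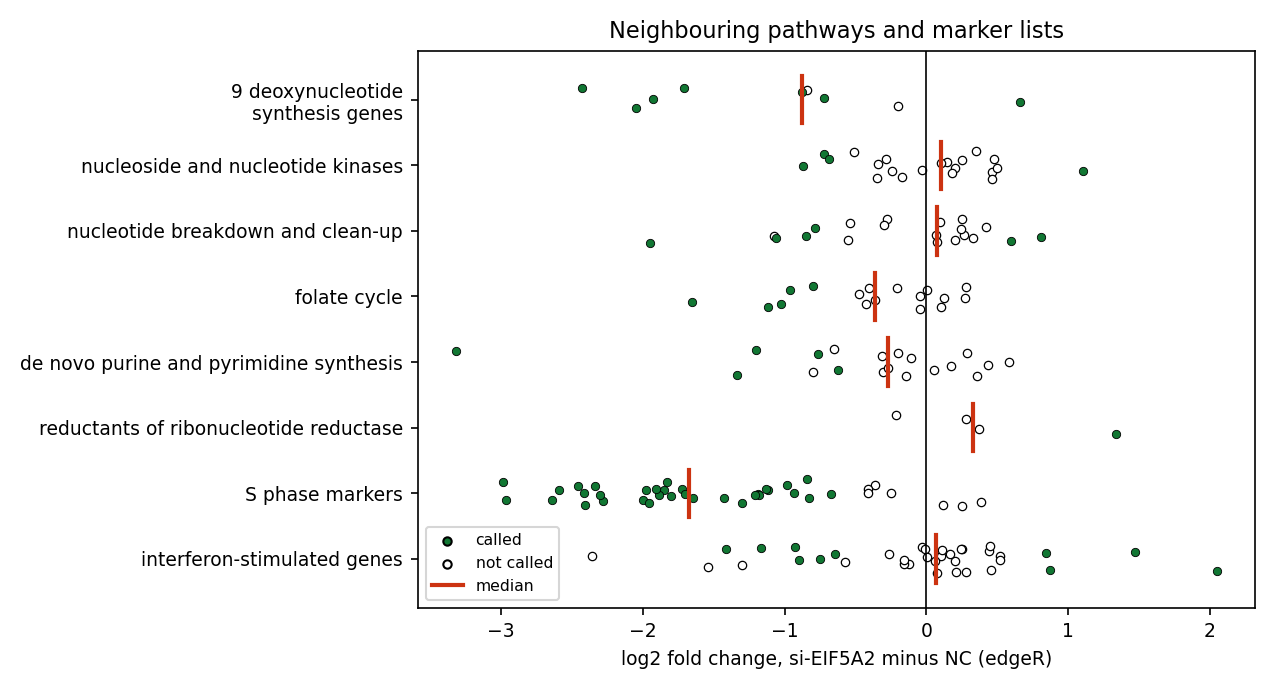
The log2 fold change (si-EIF5A2 minus NC, edgeR) of every tested gene in the 9 deoxynucleotide genes and 7 neighbouring lists. Points are genes, filled where called, and the red bars are medians, from -1.67 for S phase markers to 0.33 for the reductants of ribonucleotide reductase.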

How the data were processed

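The authors sequenced paired-end mRNA libraries of SKOV3 cells, 3 per group, ran StringTie and ballgown, and deposited whole-number estimated counts for each gene without normalization. The submitters' processing notes name Bowtie 0.12.2 and the mouse builds mm8 and mm9, while the identifiers are human Ensembl genes. The aligner, build and annotation behind the table are otherwise not given in the sources used here. The 6 columns matched the 6 libraries by name, with 0 left over. No 2 libraries of the same group agreed within sampling noise (chi-square per degree of freedom 13.8 to 20.3).

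The counts were tested with edgeR 4.0.16 in R 4.3.3 (filterByExpr, TMM, robust quasi-likelihood fit, condition as the only term, Benjamini-Hochberg adjustment over 16208 genes) and, as an alternative, DESeq2 1.42.0. The test had been planned for counts and was kept for estimated counts, which needed no rounding. CPM uses TMM library sizes. 3 fragments, the floor for a gene at 0, are 0.155 to 0.241 CPM and cover counting error only. Ratios were compared by exact permutation over libraries (scipy 1.17.1). Positions and lengths came from GENCODE release 29, and 58472 of 58825 identifiers had a symbol. The edgeR steps were tested on simulated data.

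The 9 genes and all lists were chosen with earlier results of these data known. Named are the 9 genes, EIF5A2, set counterparts, genes with overlapping exons, per list the 2 largest rises and falls that were called, averaged 10 CPM or more and had non-overlapping groups, and the 3 nearest genes of each called gene. Comparisons of proteins are not made here. Some genes and 1 list under this rule are not reported here.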

Additional observations from a re-analysis of the deposited data

How the results depend on the processing

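The log2 fold changes of the 9 genes kept their direction under DESeq2, 3 other scalings, 2 other filters, counts divided by their step, the replicate block and each library left out, and the 7 calls held under each of these. SAMHD1 passed with DESeq2 (log2 fold change -0.84, adjusted p = 0.0308) and without NC replicate 1 (-1.18), and ranged from -1.18 to -0.52 over the libraries left out. Its adjusted p ranged from 0.00262 to 0.372 over all alternatives. Of the 9 genes, 7 to 8 were called over the libraries left out and 4 to 8 over all alternatives. DCK ranged from -0.89 to -0.59 over the libraries left out. At the threshold of the study's methods, an unadjusted p under 0.05 and a fold change over 2 or under 0.5, calls dropped to 4 of the 9 genes with 0 higher, 2370 over all genes (14.6%), 1 of the kinases, 3 of breakdown and clean-up, 3 of the folate cycle, 3 of de novo synthesis and 6 of the interferon-stimulated genes. With no limit on the fold change, 5974 of the 16208 genes were called (36.9%), among them 9 of 21 kinases, 10 of 20 genes of breakdown and clean-up, 9 of 19 of de novo synthesis and 2 of 4 reductants. With the longest transcript as length, the RRM2B share differed by 30.6 points; levels by this length were added after seeing the data. In the 250 bases before the start alone, the shares of promoters were 5.92% (E2F), 14.3% (CHR), 32% (NF-Y), 42.6% (SP1) and 10.7% (TATA box), and the E2F letters of DCK were outside. The other length, fewer bases and other thresholds make up their differences by construction, and the cause of the others was not tested.

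No link between same-numbered NC and si-EIF5A2 libraries was detected. Their deviations from the group means correlated at -0.0244, 0.00522 and -0.00269, within the range of the other pairs (-0.0412 to 0.0436). These correlations cannot show whether same-numbered libraries shared a culture or a preparation, which no label states. With the replicate block, 7 of the 9 genes were called, as without it. The lowest count of the 9 genes in any library was 384.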
